A study of Mus musculus with 4 samples.

Results

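The 10 genes described here make or store the lipids of the sebaceous gland: Fasn, Scd1, Elovl6 and Elovl3 of fatty acid synthesis, Far2, Awat1, Awat2 and Dgat2 of wax ester and triglyceride synthesis, and Cidea and Mgst1 of the lipid droplet and the membranes. They were taken by symbol from the deposited table of counts per gene, where each of the 10 symbols matched 1 of the 56493 genes listed. The table holds 4 libraries of dorsal epidermis from mice. Of these, 2 came from mice labelled cKO, in which Stim1 and Stim2 were deleted by a Cre recombinase under the promoter of keratin 14 (K14-Cre), which is active in basal epithelial cells, and 2 came from control mice with floxed Stim1 and Stim2 alleles (Flox/Flox). STIM1 and STIM2 sense the calcium content of the endoplasmic reticulum and gate calcium entry through surface channels, and the comparison asked how their loss affects the RNA of the epidermis. The age and sex of the mice and whether the controls carried Cre are not given in the sources used here. Nor do the labels say that the 2 libraries of a group came from different mice, so p-values measure only the spread between these libraries, which may be technical.

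Sebaceous glands sit beside the hair follicle and open into its upper canal. Their cells, the sebocytes, arise from keratin 14-expressing progenitors, fill with lipid droplets and burst to release sebum, a mixture rich in wax esters and triglycerides. Fatty acids are built by fatty acid synthase, lengthened by elongases and given a double bond by stearoyl-CoA desaturase. A reductase turns part of them into fatty alcohols, and acyltransferases join alcohols or diacylglycerol with a further fatty acid. Several of these genes are also used by interfollicular keratinocytes and fat cells, and in bulk tissue fewer cells of a type and less RNA per cell cannot be told apart.

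The libraries were shallow, with total counts from 118858 in cKO replicate 2 to 322426 in control replicate 2. Normalised counts (CPM) are counts per 1000000 of the library size after TMM scaling, and 3 counts, the upper limit behind a count of 0, were worth 9.58 to 33.7 CPM. Stim1 had 23 and 6 counts in cKO libraries (replicates 1 and 2, the order used throughout) versus 24 and 62 among controls, and Stim2 had 0 and 1 against 3 and 18. Each cKO value of both genes was below each control value, but the change of Stim1 was not past the threshold (log2 fold change -0.98, edgeR adjusted p 0.671) and Stim2 was too low to enter the main test. Which exons were deleted is not given in the sources used here, so counts from the 3' end may lie outside the deleted part. A group of 7 genes on chromosome 1 (nuclear copies of mitochondrial genes), each 99.7% or more identical to a mitochondrial transcript over its aligned part, took 22.6% of the counts in cKO replicate 2 and 7.73% to 13.3% in the other libraries.

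The label was checked against 16 sebocyte markers outside the 10 genes, of which 12 or 13 had a count in each library. Plin5 and Fads2 had 0 counts in every library. Pparg, a lipid-forming transcription factor of sebocytes and fat cells, had at most 1 count in any library. Soat1, which esterifies cholesterol, had 105 and 55 counts in cKO libraries versus 111 and 142 among controls. Krt79, a keratin of the sebaceous duct and the upper follicle canal, had 223 and 94 counts in cKO libraries versus 51 and 80 among controls. The 16 markers together took 2555 and 3001 CPM in cKO and 2022 and 1884 CPM in control, with both cKO libraries above both controls. That separation rested on Krt79: the other 15 markers summed to 1654 and 1944 CPM in cKO and 1750 and 1629 CPM in control, and the groups overlapped.

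All 10 genes had counts in every library, and 9 of them passed the count filter of the main test, with Awat2 below it. None of the 9 was called at an adjusted p under 0.05 by edgeR, DESeq2 or limma-voom, where edgeR called 0.848% of all 4243 genes tested. At an unadjusted p under 0.05, 3 of the 9 (Elovl3, Dgat2 and Scd1) stood out, against 8.39% of all genes tested. The fitted change was upward in 6 and downward in 3, with a median log2 fold change of 0.75 over the 9 and 0.01 over all genes tested. The upward majority rested on cKO replicate 2. Without that library, Scd1, Elovl3 and Elovl6 stayed upward (0.80, 1.07 and 1.29). Awat1, Cidea and Mgst1 then turned downward (-0.52, -0.68 and -1.96), and Fasn, Far2 and Dgat2 stayed downward. Both cKO values lay above both control values for Scd1, Elovl6 and Elovl3 and below them for Dgat2, and the groups overlapped for the other 6. Among all genes tested, 38.5% had groups that did not overlap.

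**Figure D1:**
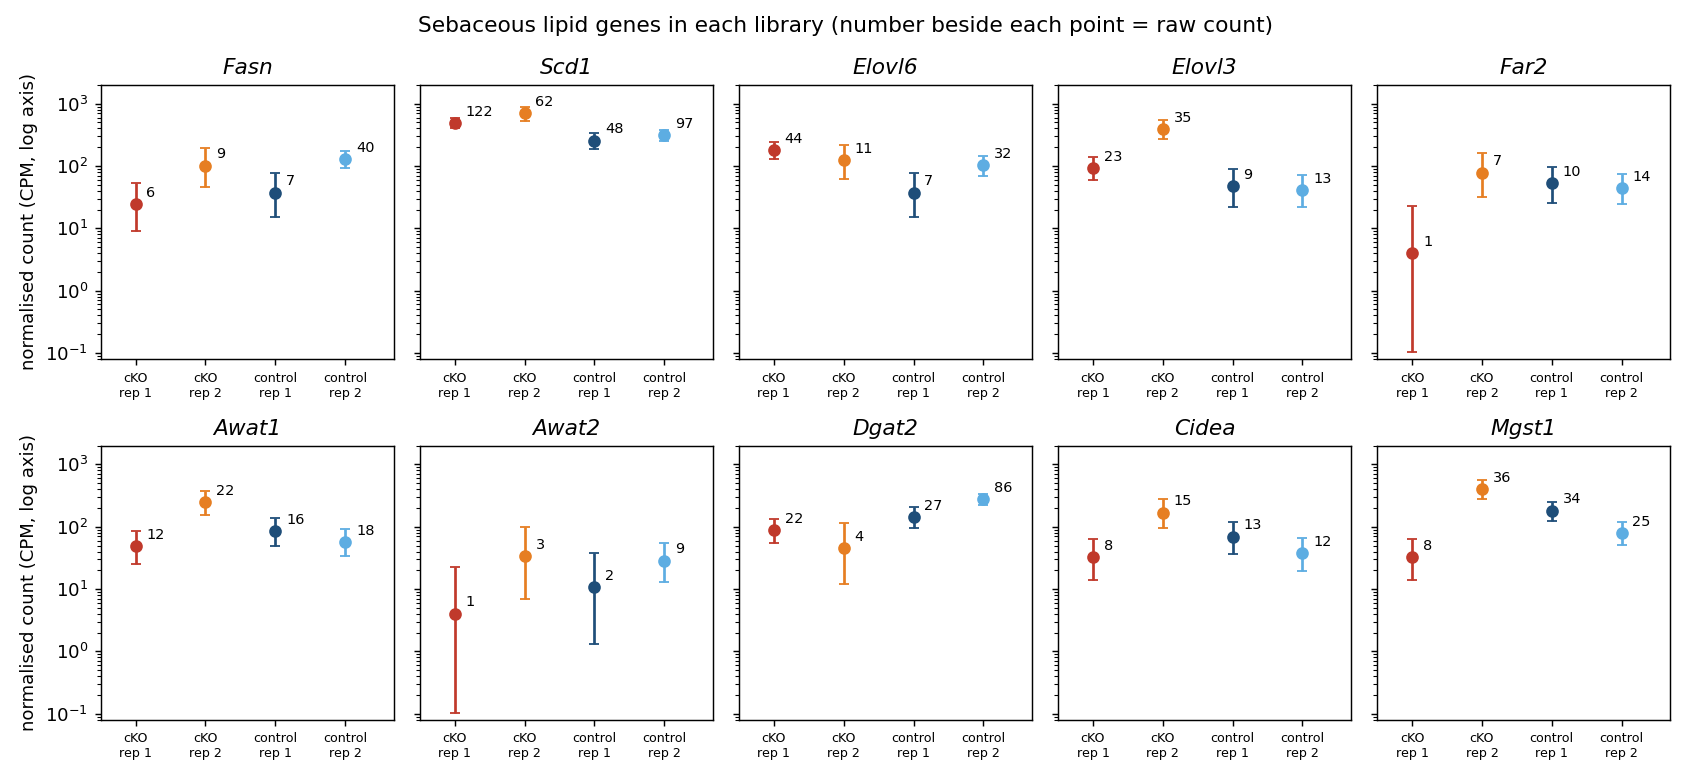
Normalised count (CPM, log axis) of each of the 10 genes in the 4 libraries, with bars for the exact 95% Poisson interval of the count (counting error only) and the raw count beside each point. Scd1, Elovl6 and Elovl3 have both cKO points above both control points, Dgat2 has both below, and for Mgst1 the cKO points, 32.3 and 405 CPM, lie on either side of both controls.

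Fasn (ENSMUSG00000025153, chromosome 11, 120696672 to 120715373, minus strand) encodes fatty acid synthase, which builds palmitate. It had 6 and 9 counts in cKO, or 24.3 and 101 CPM, and 7 and 40 counts in control, or 37.4 and 128 CPM. The 2 libraries of each genotype were apart by more than the genotypes were: cKO averaged 62.7 ± 54.4 CPM (SD, n = 2) and control 82.5 ± 63.9 CPM (SD, n = 2). In the fit, the log2 fold change was -0.66 with a 95% interval from -2.40 to 1.09 (edgeR adjusted p 0.945). These data thus allow for a difference in either direction. The sign itself rested on single libraries, since it became 0.18 without cKO replicate 1 and 0.61 without control replicate 2.

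Scd1 (ENSMUSG00000037071, chromosome 19, 44382894 to 44396318, minus strand) encodes a stearoyl-CoA desaturase, which makes the monounsaturated fatty acids of sebum. It took the most counts of the 10 genes in every library, with 122 and 62 in cKO and 48 and 97 in control. As normalised counts these were 493 and 697 CPM in cKO and 256 and 310 CPM in control, so that the lowest cKO value was above the highest control value. The group means were 595 ± 144 CPM (SD, n = 2) and 283 ± 37.9 CPM (SD, n = 2), a ratio of 2.10. The fitted log2 fold change of 1.05 (95% interval 0.13 to 1.98) had an unadjusted p of 0.0287 in edgeR and an adjusted p of 0.494. It was upward in all 16 alternatives computed, from 0.80 to 1.25, and was called in 0 of them. The alternative at a threshold of 0.1 repeats the main fit, so its direction could not differ.

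A related desaturase was singled out after its values were seen. Scd3 (ENSMUSG00000025202, chromosome 19, 44191708 to 44232455, plus strand), a neighbour of Scd1 that sebocytes also use, had 6 and 0 counts in cKO libraries versus 18 and 35 among controls. Its values were 24.3 and 0 CPM against 96.1 and 112 CPM, with both cKO libraries below both controls. Between genotypes the log2 fold change was -2.63 (standard error 0.83, edgeR adjusted p 0.272), and the gene was past the threshold without cKO replicate 1, where only the library at 0 counts represented cKO (adjusted p 0.0304). Scd2, the copy closest to Scd1 in sequence (94.7% identical over 624 bases), had 14 and 8 counts in cKO libraries versus 5 and 18 among controls, and its groups overlapped. How the counting treated reads shared between these copies is not given in the sources used here.

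The elongases lengthen fatty acids by 2 carbons at a time. Elovl6 (ENSMUSG00000041220, chromosome 3, 129326004 to 129432144, plus strand) lengthens saturated and monounsaturated chains such as palmitate. It had 44 and 11 counts in cKO, or 178 and 124 CPM, and 7 and 32 counts in control, or 37.4 and 102 CPM. Both cKO values were above both controls, although the gap between 124 and 102 CPM rests on 11 counts and is within their counting intervals. The means were 151 ± 38.4 and 69.8 ± 45.8 CPM (SD, n = 2 each). Its log2 fold change was 1.09 with an interval from -0.16 to 2.33 (edgeR adjusted p 0.680), and it moved to 0.59 with control replicate 1 left out and to 2.04 with control replicate 2 left out. A processed pseudogene 97.4% identical to Elovl6 over 805 bases, Gm11295, had 0 counts in every library.

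Elovl3 (ENSMUSG00000038754, chromosome 19, 46120336 to 46124133, plus strand) makes very long saturated and monounsaturated chains and is typical of sebocytes and of brown fat. It had 23 and 35 counts in cKO libraries versus 9 and 13 among controls. On the normalised scale these were 93.0 and 393 CPM in cKO and 48.0 and 41.5 CPM in control. The controls were close to each other, both cKO libraries were above them, and cKO replicate 2 stood 4.23-fold above cKO replicate 1. The means were 243 ± 212 CPM for cKO (SD, n = 2) and 44.8 ± 4.60 CPM for control (SD, n = 2).

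Among the 9 genes tested, Elovl3 had the largest fitted difference, a log2 fold change of 2.34 (standard error 0.68, interval 0.87 to 3.80). Its unadjusted p in edgeR was 0.00421 and its adjusted p 0.195. The size depended on which cKO library was used. Without cKO replicate 2 the log2 fold change was 1.07 (adjusted p 0.841), and without cKO replicate 1 it was 3.09 (adjusted p 0.000108), a fit in which the lone cKO library is assumed to vary like the controls. The direction was upward in all 16 alternatives computed.

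**Figure D2:**
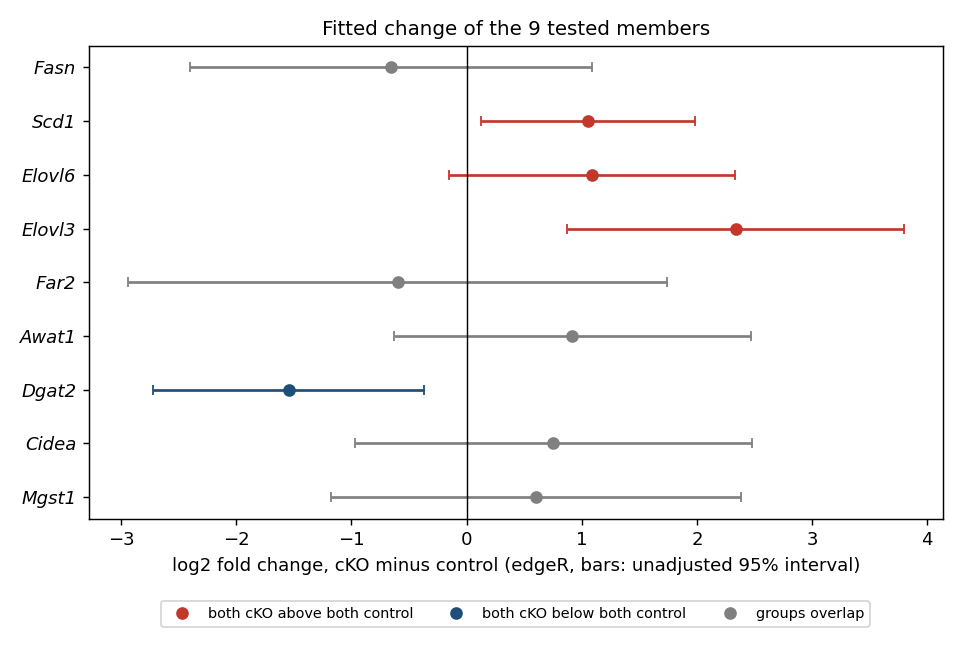
Log2 fold change (cKO minus control) of the 9 genes tested with edgeR, with bars for the unadjusted 95% interval and colours for whether the 2 groups overlapped. The intervals of Scd1 and Elovl3 lie above 0 and that of Dgat2 below 0, while none of the 9 adjusted p-values was under 0.05.

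Wax esters need a fatty alcohol and an acyltransferase. Far2 (ENSMUSG00000030303, chromosome 6, 147948757 to 148084256, plus strand) encodes a reductase that turns fatty acids into fatty alcohols. It had 1 and 7 counts in cKO, or 4.04 and 78.7 CPM, and 10 and 14 counts in control, or 53.4 and 44.7 CPM. The cKO libraries lay on either side of both controls. The count of 1 allows 0.102 to 22.5 CPM (exact Poisson interval), which is below the interval of the other cKO library, 31.6 to 162 CPM. In the fit, the log2 fold change was -0.60 with an interval from -2.94 to 1.74 (edgeR adjusted p 0.980), and it turned to 0.64 without cKO replicate 1 and was -3.43 without cKO replicate 2. Exons of Far2 share 837 bases with Ergic2 on the opposite strand, of which 0 lie in the last 500 exonic bases of Far2. Ergic2 had 17 and 1 counts in cKO libraries versus 13 and 12 among controls. The use of strand in counting is not given in the sources used here.

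Awat1 (ENSMUSG00000015665, chromosome X, 99615857 to 99621811, plus strand) and Awat2 (ENSMUSG00000031220, chromosome X, 99445827 to 99486323, minus strand) encode acyltransferases that join fatty alcohols with fatty acids into wax esters. Awat1 had 12 and 22 counts in cKO, or 48.5 and 247 CPM, and 16 and 18 counts in control, or 85.4 and 57.5 CPM. Here too the cKO libraries lay on either side of the controls. Its means were 148 ± 141 CPM for cKO (SD, n = 2) and 71.4 ± 19.7 CPM for control (SD, n = 2). The fitted log2 fold change of Awat1 was 0.92 with an interval from -0.63 to 2.47 (edgeR adjusted p 0.854), and it became -0.52 without cKO replicate 2. Awat2 had 1 and 3 counts in cKO libraries versus 2 and 9 among controls, too few to size a difference. Its fitted value without a count filter was -0.57 (standard error 1.28, edgeR adjusted p 0.938).

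Dgat2 (ENSMUSG00000030747, chromosome 7, 98802865 to 98831926, minus strand) encodes diacylglycerol acyltransferase, which makes triglycerides. It had 22 and 4 counts in cKO libraries versus 27 and 86 among controls. The normalised counts were 89.0 and 45.0 CPM in cKO and 144 and 275 CPM in control, so that both cKO libraries were below both controls. Group means were 67.0 ± 31.1 CPM (SD, n = 2) and 209 ± 92.3 CPM (SD, n = 2), a ratio of 0.320. It was the only one of the 10 genes with this arrangement, which 19.6% of all genes tested showed. Between genotypes the log2 fold change was -1.55 (standard error 0.54, interval -2.72 to -0.37), with an unadjusted p of 0.0137 and an adjusted p of 0.368 in edgeR. All 16 alternatives computed kept the downward direction, from -2.27 without cKO replicate 1 to -0.99 without control replicate 2, and 0 of them called it.

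The last pair acts on membranes and droplets. Cidea (ENSMUSG00000024526, chromosome 18, 67476674 to 67500855, plus strand) encodes a droplet protein that helps droplets fuse and grow. It had 8 and 15 counts in cKO, or 32.3 and 169 CPM, and 13 and 12 counts in control, or 69.4 and 38.3 CPM. The fitted log2 fold change of Cidea was 0.75 with an interval from -0.97 to 2.48 (edgeR adjusted p 0.925), and it became -0.68 without cKO replicate 2. Mgst1 (ENSMUSG00000008540, chromosome 6, 138117314 to 138133753, plus strand) encodes a microsomal glutathione transferase, an enzyme of detoxification and peroxide removal that is abundant in sebocytes.

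Mgst1 had 8 and 36 counts in cKO, or 32.3 and 405 CPM, and 34 and 25 counts in control, or 181 and 79.8 CPM. It was lowest in cKO replicate 1 and highest in cKO replicate 2, a 12.5-fold gap within the genotype. The exact Poisson intervals of the 2 cKO counts, 14.0 to 63.7 CPM and 283 to 560 CPM, did not meet. The fitted log2 fold change of Mgst1 was 0.60 with an interval from -1.17 to 2.38 (edgeR adjusted p 0.955). Its sign followed the cKO library that was kept, at -1.96 with replicate 1 alone and 1.62 with replicate 2 alone.

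The gap between the 2 cKO libraries ran through most of the genes. Of the 10, 8 were higher in cKO replicate 2 than in cKO replicate 1, against 48.8% of all genes tested. Elovl6 and Dgat2 were the exceptions, at 0.695 and 0.505 of the level in replicate 1. For 5 genes (Mgst1, Awat1, Elovl3, Far2 and Cidea) the exact Poisson intervals of the cKO libraries did not overlap, and for 3 (Mgst1, Dgat2 and Fasn) those of the control libraries did not. Neither count was made over all genes, so whether it is usual in these libraries is not known. In Fasn, Far2, Awat1, Awat2, Cidea and Mgst1 the log2 ratio between the cKO replicates was larger than that between the group means. Among the genes tested that had a count in every library this was so for 61.7%.

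**Figure D3:**
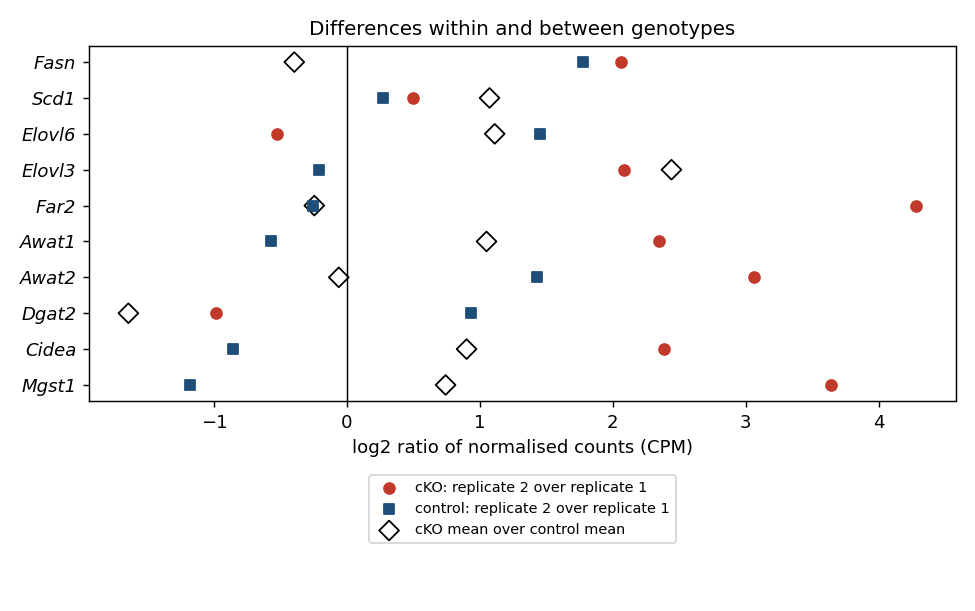
Log2 ratio of normalised counts (CPM) for each gene: replicate 2 over replicate 1 within cKO (circles), the same within control (squares), and the cKO mean over the control mean (open diamonds). In 6 of the 10 genes the circle is farther from 0 than the diamond; the circles of Far2 and Awat2 rest on 1 count in cKO replicate 1.

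By CPM, Cidea, Mgst1, Far2, Awat1 and Awat2 were all lowest in cKO replicate 1 and highest in cKO replicate 2. For Awat2 the highest value was 3 counts, or 33.7 CPM, against 9 counts, or 28.7 CPM, in control replicate 2. For Far2 it was 7 counts, with a Poisson interval of 31.6 to 162 CPM that overlapped those of both controls. Fasn was also lowest in cKO replicate 1, at 24.3 CPM, and highest in control replicate 2. In cKO replicate 2, other measures stood apart as well, and their part in these levels was not tested. It was the shallowest library and had the highest share of the mitochondrial copies. Its summed level of 8 dermal fibroblast markers was 775 CPM, against 52.6 CPM in cKO replicate 1 and 288 and 150 CPM in control, with 5 of the 8 detected and 0 of 3 tested genes called by edgeR, DESeq2 or limma-voom (0 at an unadjusted p under 0.05 in edgeR). Its summed level of 10 markers of the upper follicle and outer root sheath was 19409 CPM, against 6585 to 7971 CPM in the other libraries. The cystatin Cst6, a protease inhibitor of the upper follicle and the epidermis, gave most of that sum, with 1426 counts in cKO replicate 2. Of 5 tested genes of that list, edgeR called 0, with 4 at an unadjusted p under 0.05, against 8.39% of all genes tested. DESeq2, which called 35 genes higher and 8 lower over all genes, called 2 of the list (Krt79 and Cst6). With limma-voom, which called 12 higher and 3 lower over all genes, 1 was called (Krt79). The list was split in direction. Of the 5 tested genes, 3 had both cKO libraries above both controls, Krt79 and Cst6 among them, against 18.9% of all genes tested. The other 2, Krt17 and Krt75, keratins of the outer root sheath and companion layer, had both below, against 19.6% of all genes tested. Krt17 had 1314 and 1652 CPM in cKO and 3314 and 4436 CPM in control (log2 fold change -1.39, edgeR adjusted p 0.264). Krt75, named after its values were seen, had 170 and 202 CPM in cKO and 432 and 996 CPM in control (-1.96, adjusted p 0.119).

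The 10 genes summed to 247 and 204 counts in cKO libraries versus 173 and 346 among controls. This was 0.0875% of the counts of cKO replicate 1 (95% Wilson interval 0.0773% to 0.0991%) and 0.172% of cKO replicate 2 (0.150% to 0.197%). In control it was 0.0864% (0.0744% to 0.1002%) and 0.107% (0.0966% to 0.119%). The share of cKO replicate 1 thus lay between those of the controls and that of cKO replicate 2 was above both controls. Intervals of this kind cover counting error only.

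**Figure D4:**
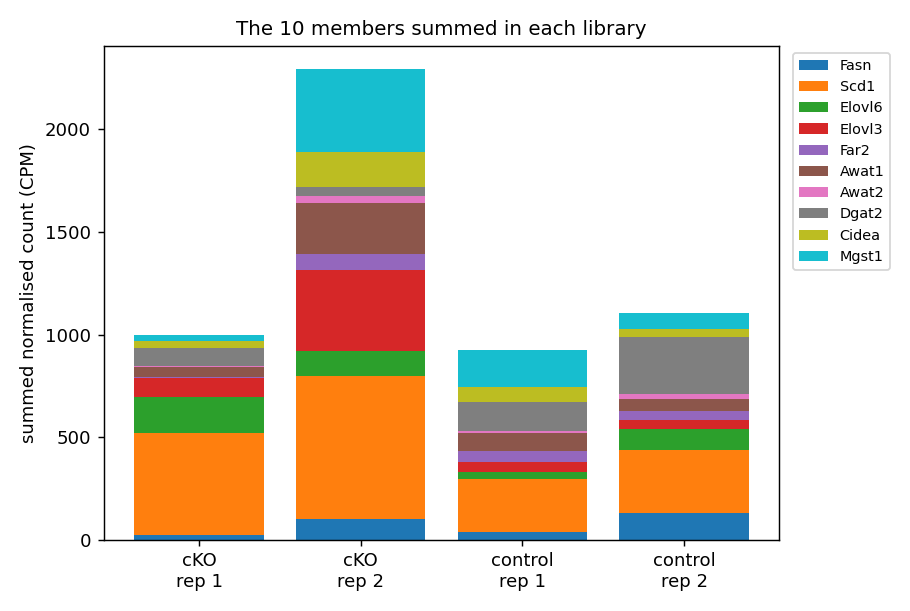
Summed normalised count (CPM) of the 10 genes in each library, stacked by gene. The sum is 2293 CPM in cKO replicate 2 and 923 to 1105 CPM in the other 3 libraries, and Scd1 is the largest segment in each.

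By role, the 4 fatty acid genes together had 788 and 1315 CPM in cKO and 379 and 581 CPM in control, with both cKO libraries higher. Scd1 gave 493 and 697 CPM of the cKO sums, and Elovl3 gave 393 CPM in cKO replicate 2. Scd1, Elovl6 and Elovl3 each had both cKO values above both controls, while the groups overlapped for Fasn (log2 fold change -0.66). The 4 genes of wax ester and triglyceride synthesis had 146 and 405 CPM in cKO and 293 and 406 CPM in control, where the groups overlapped. Cidea and Mgst1 together had 64.7 and 573 CPM in cKO and 251 and 118 CPM in control, again with the cKO libraries on either side of the controls. Scd1 was 49.4% of the summed counts in cKO replicate 1 and 27.7% to 30.4% in the other libraries.

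The rest of the pathway was read from lists. Of 28 other genes that supply, lengthen or desaturate fatty acids, 14 were tested and 0 were called by edgeR, DESeq2 or limma-voom. At an unadjusted p under 0.05 in edgeR there were 3, against 8.39% of all genes tested. The median log2 fold change of this list was 0.19, where that of all genes tested was 0.01. The 3 with the highest mean level were Elovl4, Elovl1 and Me1. Elovl4, which makes the very long chains of barrier ceramides, had 361 and 166 counts in cKO libraries versus 137 and 345 among controls, both cKO values being higher after scaling (log2 fold change 0.85, edgeR adjusted p 0.658). Me1, malic enzyme, which supplies NADPH for synthesis, had 41 and 19 counts in cKO libraries versus 28 and 93 among controls (log2 fold change -0.28, adjusted p 0.976). Elovl1, which elongates saturated very long chains, had 71 and 17 counts in cKO libraries versus 16 and 116 among controls (log2 fold change 0.07, adjusted p 0.997).

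Of 34 other genes of wax ester and glyceride synthesis and of droplets, 11 were tested and 0 were called by edgeR, DESeq2 or limma-voom. At an unadjusted p under 0.05 in edgeR there was 1, against 8.39% of all genes tested. The median log2 fold change of this list was -0.02, where that of all genes tested was 0.01. Soat1, at -0.02, was the median gene. Plin2, a protein coat of lipid droplets, had 38 and 46 counts in cKO libraries versus 71 and 55 among controls (log2 fold change 0.22, edgeR adjusted p 0.992). Agpat5, an acyltransferase of glycerolipid synthesis, had 189 and 47 counts in cKO libraries versus 44 and 223 among controls (0.45, adjusted p 0.936). Far1, the paralogue of Far2, was singled out after its values were seen. It had 27 and 28 counts in cKO and 10 in each control, or 109 and 315 CPM against 53.4 and 31.9 CPM, with both cKO libraries above both controls (log2 fold change 2.26, standard error 0.64, adjusted p 0.181).

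Of 23 regulators of lipid synthesis and of sebocytes, 7 were tested and 0 were called by edgeR, DESeq2 or limma-voom. At an unadjusted p under 0.05 in edgeR there was 1, against 8.39% of all genes tested. The median log2 fold change of this list was -0.01, where that of all genes tested was 0.01. Srebf1, whose protein switches on fatty acid synthesis genes, was below the filter with 4 and 0 counts in cKO libraries versus 3 and 4 among controls. The 3 regulators with the highest mean level were Cebpb, Insig2 and Cebpa. Cebpb, a transcription factor of differentiation, had 32 and 74 counts in cKO libraries versus 52 and 92 among controls (log2 fold change 0.68, edgeR adjusted p 0.902). Insig2, which holds sterol-regulated factors in the endoplasmic reticulum, had 32 and 24 counts in cKO libraries versus 40 and 54 among controls (-0.01, adjusted p 0.998). Cebpa had 44 and 15 counts in cKO libraries versus 20 and 54 among controls (0.30, adjusted p 0.965).

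Of 14 genes of fatty acid uptake and binding, 5 were tested, 1 was called higher and 0 lower, against 0.660% of all genes tested called higher, and the median was 0.98. The called gene was Fabp5, an epidermal fatty acid-binding protein that sebocytes and keratinocytes share. It had 175 and 111 counts in cKO libraries versus 26 and 77 among controls, or 708 and 1247 CPM against 139 and 246 CPM, with no overlap between the groups. Fabp5 rose in cKO by a log2 fold change of 2.31 (standard error 0.49, edgeR adjusted p 0.0424). The call did not hold with library totals as the scaling (adjusted p 0.0630), with library sizes without the mitochondrial copies (0.0527), with the replicate block (0.173) or without control replicate 1 (0.248). Processed copies of Fabp5 exist: Gm6166, 98.3% identical over 409 bases, had 16 and 7 counts in cKO libraries versus 2 and 6 among controls, and how reads shared by them were divided is not given in the sources used here.

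Dbi, an acyl-CoA-binding protein, had 230 and 120 counts in cKO libraries versus 120 and 161 among controls, with both cKO libraries higher after scaling (log2 fold change 0.98, edgeR adjusted p 0.546). Slc27a4, a fatty acid transporter, had 60 and 56 counts in cKO libraries versus 26 and 85 among controls, and its groups overlapped (1.02, adjusted p 0.671). None of the 5 other members of the MAPEG family, the membrane proteins to which Mgst1 belongs, reached the test. Ptges, the prostaglandin E synthase of that family, had 29 and 4 counts in cKO libraries versus 2 and 8 among controls. Mgst2 had 8 and 6 counts in cKO libraries versus 2 and 3 among controls, and Alox5ap had 3 and 4 in cKO and 4 and 17 in control.

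Among the sebocyte markers outside the 10 genes, 9 of 16 were tested and 0 were called by edgeR. At an unadjusted p under 0.05 there were 3, against 8.39% of all genes tested. DESeq2 and limma-voom each called 1, Krt79, against 35 and 12 called higher over all genes. The fitted change was upward in 5 and downward in 4. Both cKO values lay above both controls for 2 and below them for 2, Scd3 (log2 fold change -2.63) being among the latter. Among all genes tested, 18.9% had both cKO values above both controls and 19.6% had both below. The median log2 fold change of the 9 markers was 0.22, where that of all genes tested was 0.01. With library totals as the scaling these medians were -0.05 and -0.21. Krt79 came closest, with 902 and 1056 CPM in cKO and 272 and 255 CPM in control. Both cKO values were above both controls, and the log2 fold change was 1.89 (standard error 0.42, edgeR adjusted p 0.0677). It was past the threshold with DESeq2 (adjusted p 0.00926), limma-voom (0.0368), no count filter (0.0416) and a mean of at least 10 CPM (0.0499). The crossed replicate block, chosen after seeing the data, passed it too (edgeR adjusted p 2.94e-05). The planned replicate block did not (edgeR adjusted p 0.369), nor did any other scaling (0.0616 to 0.104). With single libraries left out, the log2 fold change of Krt79 was 1.78 to 1.96. Apoc1, an apolipoprotein, had 82 and 37 counts in cKO libraries versus 71 and 63 among controls (0.37, adjusted p 0.947).

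Fat cells use Scd1, Fasn, Elovl6, Dgat2 and Cidea as well, so their markers were read in the same libraries. Of 12 white fat cell markers, 5 had 0 counts in every library, among them Plin1 and Lep. The 12 summed to 44.5 and 191 CPM in cKO and 261 and 121 CPM in control. Adipoq, which is made by fat cells, had 1 and 7 counts in cKO libraries versus 0 and 1 among controls. Fabp4, a fatty acid-binding protein of fat cells and vessels, had 2 and 9 counts in cKO libraries versus 11 and 1 among controls (log2 fold change 0.67, edgeR adjusted p 0.988). Car3, which fat and muscle share, gave most of the control sum, with 3 and 0 counts in cKO libraries versus 32 and 23 among controls (edgeR adjusted p 0.0991). Ucp1, the defining gene of brown fat, had 0 counts in every library, and 6 brown fat markers summed to 89.0 and 0 CPM in cKO and 107 and 19.2 CPM in control. These sums came from different genes. Dio2, with 22 counts, was the only one of the 6 detected in cKO replicate 1. Cox8b, with 13 and 1 counts in control, and Cox7a1, with 7 and 1, had 0 counts in both cKO libraries.

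Levels of muscle and hair markers differed between the groups beside these genes. The 10 skeletal muscle markers together had 44.5 and 135 CPM in cKO and 1478 and 1047 CPM in control, and edgeR called 4 of 7 tested genes lower (Tnnc2, Myh4, Acta1 and Pvalb), against 0.189% of all genes tested. DESeq2 called 2 of the 7 (Myh4 and Pvalb), against 8 genes lower over all genes tested, and limma-voom 0. Of Tnnc2, 592 exonic bases also belong to Ube2c, an antisense neighbour. Markers of the hair shaft and inner root sheath summed to 566 and 494 CPM in cKO and 1681 and 1718 CPM in control. Of 4 tested genes edgeR called 0, with 2 at an unadjusted p under 0.05, against 8.39% of all genes tested. DESeq2 and limma-voom each called 1, Tchh, against 8 and 3 called lower over all genes. The part of muscle and hair in the levels of Dgat2 and the other lipid genes was not tested.

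The genes whose profile over the 4 libraries was most like that of the summed 10 genes were Ythdf1, Lratd1, Gm14586, Tef and Manbal. Likeness was the root mean square distance between centred log2 CPM values over 4 libraries, and it ran from 0.039 to 0.090 among these 5 of 3421 candidates. Each of them had 8 to 26 counts per library, so the ranking rests on few counts. Ythdf1, a reader of methylated RNA bases, had 48.5 and 112 CPM in cKO and 42.7 and 51.1 CPM in control.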

How the data were processed

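Epidermal RNA was extracted and sequenced on an MGI platform from libraries of a 3' kit (QIAseq UPX), as the labels state. The authors deposited whole-number counts per gene, 1 column per library and no normalisation; 0 per-sample columns were left unused. Trim Galore 0.6.7, cutadapt 3.7, Trimmomatic 0.39, STAR 2.7.10a, featureCounts 2.0.1 and build GRCm39 are named in the submitters' processing notes, without settings. Coordinates are those of the deposited table. The use of molecular identifiers and of strand and the treatment of reads with several alignments are not given in the sources used here. A 3' kit reads 1 end of a transcript, so CPM were not divided by gene length, and ranks between genes are ranks of counts.

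Titles gave the genotype, with 2 libraries per group. Genes were kept with filterByExpr (minimum count 10, total 15), which left 4243 genes with 87.6% of all counts, scaled with TMM and tested with glmQLFit and glmQLFTest in edgeR 4.0.16 (R 4.3.3), with genotype as the only term, Benjamini-Hochberg adjustment over all genes tested and a threshold of 0.05. Standard errors are the absolute log2 fold change over the square root of F; gene intervals use the fit's t quantile. Awat2 fell under the filter and has a value from the fit without one. Beside the lipid genes, Stim1 and Stim2, the text names, in each list, the called genes and the 3 of highest mean CPM, apart from some marker lists given by sums; Scd3, Far1, Krt75, Srebf1, Pparg, Plin5, Fads2, Plin1, Lep, Ucp1, the sequence copies and the overlapping genes fall outside this rule and were chosen after their values were seen. A gene of the regulator list is not reported here by name. The 10 genes, the 6 pathway lists (the 10 genes among them) and the 13 marker lists were chosen with earlier results of these data known. The lists not described (basal and suprabasal keratinocytes, Langerhans cells, T cells, melanocytes and endothelium) had 0 genes called by edgeR, with 2, 2, 1, 2, 0 and 0 at an unadjusted p under 0.05; DESeq2 and limma-voom each called 1, Krt14. Alternatives were other scalings, filters, DESeq2 1.42.0, limma-voom 3.58.1, a replicate block, a threshold of 0.1 and each library left out; 2 more were added after seeing the data. Copies of the genes and the identity of the mitochondrial copies, a stretch known from earlier results, were searched with blastn 2.17.0 in the GENCODE M21 transcripts. On simulated data, where 200 of 4243 genes carried a log2 difference of 3, the edgeR fit recovered 83.5% to 91% of them in 3 draws. At most 6.7% of calls were wrong, and smaller changes were not simulated. Counts were drawn with the spread of the trend fitted over all genes, without extra spread of single genes or libraries. These rates can thus be too favourable for the lipid genes.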

Additional observations from a re-analysis of the deposited data

How the results depend on the processing

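None of the lipid genes tested was called by edgeR under the other scalings, filters and threshold or with single libraries left out, nor by DESeq2 or limma-voom, each run once on all 4 libraries, except that 1 gene, Elovl3, was called higher by edgeR without cKO replicate 1 and, in an alternative chosen after seeing the data, with the replicate numbers crossed between the groups (replicate block with crossed numbers), which called 90 genes higher and 57 lower over all genes. With the replicate number as a block, 16 genes were called higher and 1 lower over all genes, against 28 and 8 without it, and 0 lipid genes were called. The labels do not say that equal numbers mark a shared mouse, litter or day, and over 3572 genes the deviations of same-numbered libraries from their group means correlated at -0.221. Over all genes, 49 were called higher and 26 lower without a count filter, 15 lower with a mean of at least 10 CPM, 12 higher and 3 lower with limma-voom, and 43 higher and 17 lower at a threshold of 0.1. Leaving out each library in turn gave 34 to 59 genes higher and 8 to 34 lower, and 0 to 1 lipid genes higher.

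Awat2 was under the filter in all but 2 of the fits, so 1 alternative gives it a value. Scd1, Elovl3, Elovl6 and Dgat2 kept their direction in all 16 alternatives computed. The threshold of 0.1 repeats the main fit, and the other scalings and filters reuse the same 4 libraries, so the alternatives are not independent. With limma-voom the log2 fold change of Mgst1 turned to -0.68 and that of Cidea to -0.12; the cause was not tested. Leaving out single libraries gave -1.96 to 1.62 for Mgst1, -0.52 to 1.77 for Awat1, -0.68 to 1.64 for Cidea, -3.43 to 0.64 for Far2 and -1.79 to 0.61 for Fasn. Library totals as the scaling moved the median of all genes to -0.21, and the log2 fold changes of Scd1 and Elovl3 were then 0.81 and 2.06. Depth limits most what can be said of Awat2, with at most 9 counts in a library, and of all 10 genes in cKO replicate 2, where 1 count is worth 11.2 CPM.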
